A study of Mus musculus with 6 samples.

Results

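The miR-17-92 cluster is a group of 6 miRNA hairpins, Mir17, Mir18, Mir19a, Mir20a, Mir19b-1 and Mir92-1, that are cut from 1 long noncoding RNA, the host transcript Mir17hg. The genes were chosen by position: Mir19b-1, Mir17hg and every other miRNA gene inside Mir17hg on chromosome 14 (GRCm38) whose Ensembl identifier had a row. Of the 10065 genes with a value, 2 met the rule, Mir19b-1 and Mir17hg, and of the 6 hairpins of the cluster 1 had a row. The study sequenced small RNA from whole hearts of female SV129 mice at postnatal day 6. It used 3 mice without ADAR2 (Adarb1-/-), an enzyme that changes adenosine to inosine in double-stranded RNA, and 3 wild type siblings. Both groups are described as homozygous for the pre-edited glutamate receptor allele (Gria R/R in the extraction notes), which keeps mice without ADAR2 alive, although the genotype label names this allele (Gria2R/R) for the mutants alone. The knockout is constitutive and the organ was taken whole, so no cell type was separated and a level here is that of a mixture of cells. The question of the series was which miRNAs differ between the genotypes.

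The levels given here are 1 value per gene, the mean over all 6 hearts of the normalized read count, as the authors computed it. Levels in single hearts or in each genotype were not analysed here, so no value has a replicate error, no difference was tested, and nothing is said about the effect of ADAR2 on the cluster. Adarb1, the gene deleted in the mutants, had a pooled mean of 16.6, which cannot check the genotype labels. The sequencing depth of each library is unknown from these values, and differences between genes are given as sizes alone. Over the whole series the means ran up from 1.09 with a median of 6.65. The 134 miRNA genes held means between 1.63 and 937.6, their highest being Mir208b, a miRNA of the cardiac myosin genes. Of 12 cardiomyocyte markers 11 had a row (means from 4.82 to 937.6, with Nppa lacking one), all 6 red blood cell markers had one (2.45 to 31.4), as did all 3 endothelial markers (3.70 to 675.2) and all 3 fibroblast markers (5.40 to 44.8). Mir208a (413.0) lies inside Myh6 (424.5), so these are not separate markers. The highest cardiomyocyte and endothelial values were of miRNA genes, Mir208b and Mir126a, and the lowest were of Tnnt2 and Cdh5. These means are not read as a measure of cell content. None of the 8 genes listed as markers of liver and brain, such as Mir122 and Alb, had a row. All of them but Alb are miRNA genes, and over the whole annotation 134 of 2202 miRNA genes (6.09%) had a row. Their missing rows are therefore not read as a result. For protein-coding markers the share over all such genes was not computed.

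A miRNA cluster is transcribed as 1 primary RNA. The nuclease Drosha with its partner DGCR8 cuts out each hairpin, Dicer cuts the hairpin to a duplex, and 1 strand enters an Argonaute protein, where its seed pairs with target mRNAs. Members of 1 cluster can therefore share a transcript and still differ in mature level. The miR-17-92 cluster is known as a driver of proliferation and as an oncogene under the control of MYC. Mice that lack it die around birth with small lungs and a defect of the ventricular septum. In heart muscle it is known to promote division of cardiomyocytes.

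The 6 hairpins carry 4 seeds. Their dominant strands are given from RefSeq (GRCm38.p6), 5′ to 3′, with the seed, bases 2 to 8, in capitals, because shared seeds and shared whole sequences decide which genes a short read can be told to come from.
miR-17-5p: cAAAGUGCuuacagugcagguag
miR-20a-5p: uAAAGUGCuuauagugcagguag
miR-18a-5p: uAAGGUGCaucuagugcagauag
miR-19a-3p: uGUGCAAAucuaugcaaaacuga
miR-19b-3p: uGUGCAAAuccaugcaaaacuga
miR-92a-3p: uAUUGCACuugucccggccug

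miR-17-5p and miR-20a-5p share the seed AAAGUGC and differ at 2 of 23 bases (C1U and C12U, with miR-17-5p first and positions counted from 1 at the 5′ end). miR-19a-3p and miR-19b-3p share GUGCAAA and differ at 1 of 23 bases (U11C, with miR-19a-3p first), outside the seed. miR-18a-5p carries AAGGUGC and miR-92a-3p carries AUUGCAC, each alone in the cluster. Mir19b-1, the member with a row, therefore has its closest relative within the cluster in Mir19a, which has no row.

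On GRCm38 (GENCODE M21) Mir17hg lies at chr14:115042879-115046727 on the plus strand, a lincRNA gene of 3849 bases with 2 exons of 79 and 3457 bases. All 6 hairpins lie in exon 2, on the same strand as the host, within 836 bases of each other, and hairpins make up 64.1% of that stretch. Mir17 comes first, 792 bases from the start of the host, and is followed by Mir18 at 972, Mir19a at 1121, Mir20a at 1278, Mir19b-1 at 1426 and Mir92-1 at 1548 bases. Mir19b-1 is chr14:115044305-115044391, 87 bases long, and sits 41 bases after Mir20a and 35 bases before Mir92-1, the shortest gaps of the cluster. By length (80 to 107 bases) and GC content (43.7% to 47.5%) the hairpins differ little.

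**Figure D1:**
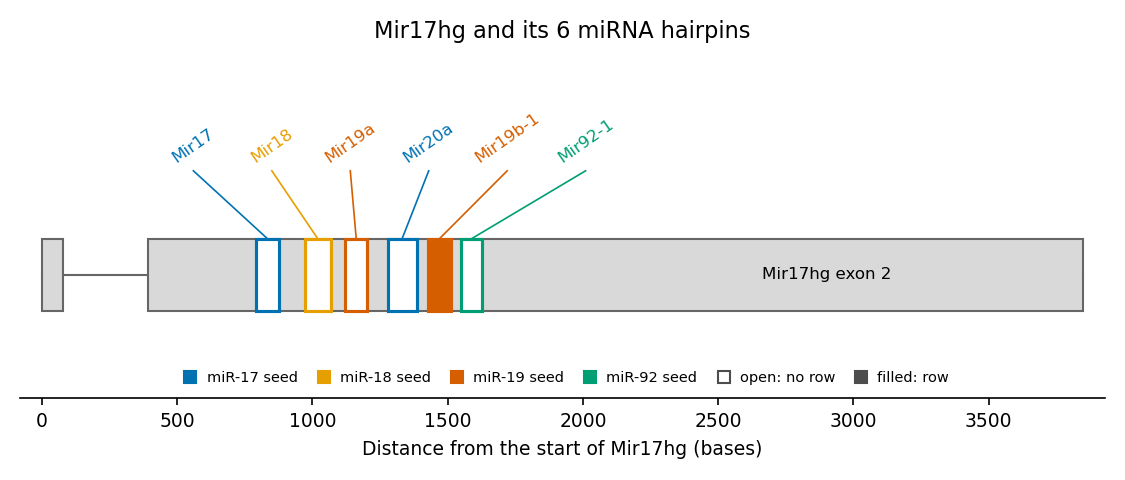
Map of Mir17hg to scale, with distance from its start in bases on the x axis, exons in grey, and hairpins coloured by seed. Filled boxes have a row and open boxes have none. Mir19b-1, 1426 bases from the start, is the only filled hairpin, and Mir19a, with the same seed, is open.

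Mir19b-1 (ENSMUSG00000076256) had a mean of 5.30 normalized reads. Its host Mir17hg (ENSMUSG00000089726) had a mean of 13.4. In whole hearts, fewer cells of the type that makes a transcript and less of it per cell cannot be told apart. Mir17, Mir18, Mir19a, Mir20a and Mir92-1, 5 genes, had no row and were not analysed here, so no level and no upper limit can be given for them. The comparison of cluster members with each other thus comes down to which of them has a row: 1 of 2 genes with the miR-19 seed, and none with the miR-17, miR-18 or miR-92 seed.

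That pattern was set beside the other miRNA clusters. In GENCODE M21, 9 clusters of at least 3 miRNA genes on 1 strand, less than 10 kb apart, had at least 1 row. Of these, 4 clusters had a row for every member, the Mir23a, Mir23b, Mir99b and Mirlet7d groups. The share of members with a row was 16.7% for the miR-17-92 cluster against a median of 66.7%. The large Mir379 cluster on chromosome 12 was lower, with 6 of 39 genes (15.4%), and the miR-17-92 cluster was the only 1 of the 9 with a single row. Over the whole annotation, 134 of 2202 miRNA genes (6.09%) had a row. Clusters with no row were left out of the 9, which raises the median, and a kept cluster of 3 genes cannot have a share as low as 16.7%. The 16.7% lay above the share over all miRNA genes. These shares describe the rows and were not tested.

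Among the 134 miRNA genes Mir19b-1 stood at place 78 from the top, with 77 genes above it and 56 below. Its mean was 0.694 times the median miRNA gene (7.64) and made up 0.0969% of the summed miRNA means. That sum (5472) counts genes with identical means, such as those overlapping on opposite strands, each time. With identical values counted once it was 4504, so the share would be somewhat higher. Mir208b stood 176.8-fold higher. Mean counts below 10 were the common case, held by 78 of the 134 miRNA genes, and Mir19b-1 is one of them. The 5 miRNA genes nearest to it by the log2 of the mean, over this 1 pooled value each, were Mir351 (5.31), Gm47304 (5.27), Gm25252 and Mir376a (5.22 each, overlapping on opposite strands) and Mir151 (5.46). The farthest, Mir151, differed by 0.04 on the log2 scale, and with no replicate error the order of these genes is not established. Per kilobase of gene, Mir19b-1 reached 61.0 and stood at place 81, close to its place by the mean since miRNA genes are of similar length.

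**Figure D2:**
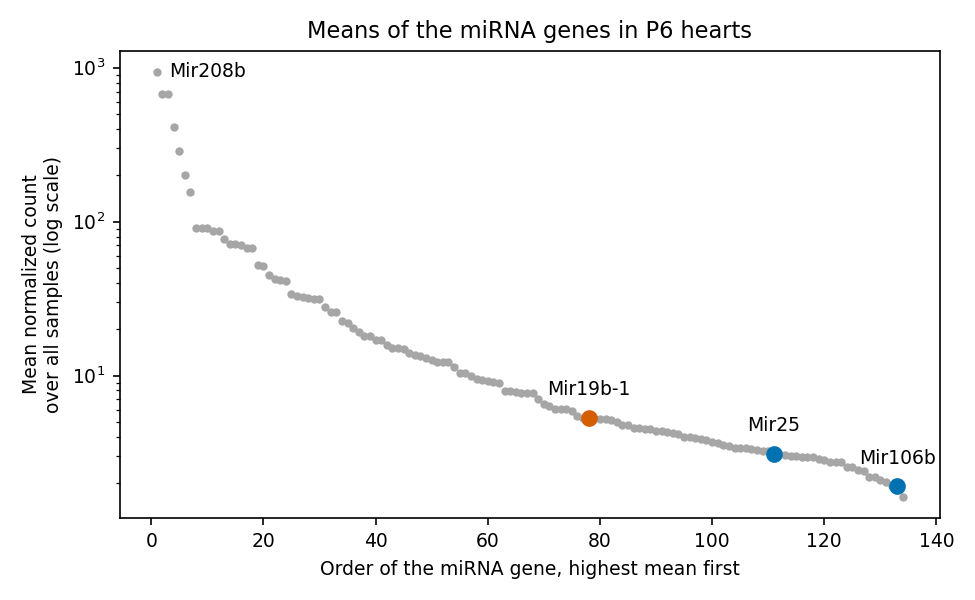
Mean normalized count over all samples (y axis, log scale) of the 134 miRNA genes ordered from highest to lowest (x axis), 1 point per gene with no error bars. Mir19b-1 (orange, 5.30) lies at place 78, above Mir25 (3.11) and Mir106b (1.90) of a related cluster (blue), and far below Mir208b (937.6).

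The host was higher than its member by mean count and lower per length. The mean of Mir17hg was 2.53 times that of Mir19b-1, so the miRNA gene equalled 39.5% of the host's value while covering 2.26% of its length. If the reads on Mir19b-1 are also among those counted on Mir17hg, 8.14 of the host's mean of 13.4 came from elsewhere in the host. Spread over the remaining 3762 bases that is 2.16 per kilobase, against 61.0 per kilobase on the hairpin, a 28.2-fold difference in level per length. Those remaining bases include the 5 hairpins with no row of their own. How much of the 8.14 fell on them was not tested.

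Mir17hg was above the middle of its own gene class. Among 520 lincRNA genes it stood at place 136 by mean, where the median was 6.04, and at place 27 by mean per kilobase of gene, at 3.49 against a median of 0.136. With Mir19b-1 taken off it would stand at place 43 per kilobase (2.16). The other lincRNA genes kept any miRNA reads of their own in this ranking, so the comparison is not like for like. The 5 lincRNA genes nearest to it in mean were 4833445I07Rik (13.3), 4930556G01Rik (13.3), 9130019P16Rik (13.6), Gm12374 (13.2) and Gm13814 (13.9). Of these, 4833445I07Rik is 1642 bases long and held 8.09 per kilobase, more than Mir17hg. The other 4 are 45884 to 160541 bases long and held at most 0.303 per kilobase, so their like means came from far longer genes.

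The pair was then read against all miRNA genes that lie inside another gene with a row. There were 107 such pairs, and the host's mean was at least that of the miRNA gene in 106 of them. Where reads of a miRNA gene are also counted on its host, a host mean at or above it follows from the counting. The 106 are therefore not read as a result about the hosts. The median ratio was 2.01, and 60 pairs had a lower ratio than Mir17hg with Mir19b-1 while 46 had a higher one. At the low end were Mirlet7a-1 in 6720427I07Rik (0.547), the 1 pair below 1, followed by pairs whose 2 means were the same, Mir125b-1 in Gm28119 and Mir142 in its host Mir142hg. At the high end were Mir26a-1 in Ctdspl (65.1), Mir214 in Dnm3 (64.0) and Gm23935 in Zc3h7a (44.6), all in protein-coding hosts.

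Where the hairpin lay in an exon of a noncoding host on the same strand, as Mir19b-1 does, the ratios were lower. These 16 pairs, a set chosen after the values were seen, had a median ratio of 1.07. In 8 of them the host equalled its miRNA gene or was within 10% above it, among them Mir22 in Mir22hg (155.5 and 156.1). The ratio of Mir17hg exceeded 12 of the 16, and 3 exceeded it: Mir214 in Dnm3os (3.00) and Gm47305 and Gm47287 in the 7S RNA genes Rn7s2 and Rn7s1 (4.96 and 4.97). Gm47287, Gm47304, Gm47305 and Gm47306, all among the 16, lie in misc RNA genes of 291 to 300 bases. Such hosts are unlike Mir17hg, at 3849 bases. Whether those miRNA genes hold reads of a hairpin or of the RNA around it was not tested. Some members of these pairs share a host or a sequence, so the 16 are not separate observations.

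**Figure D3:**
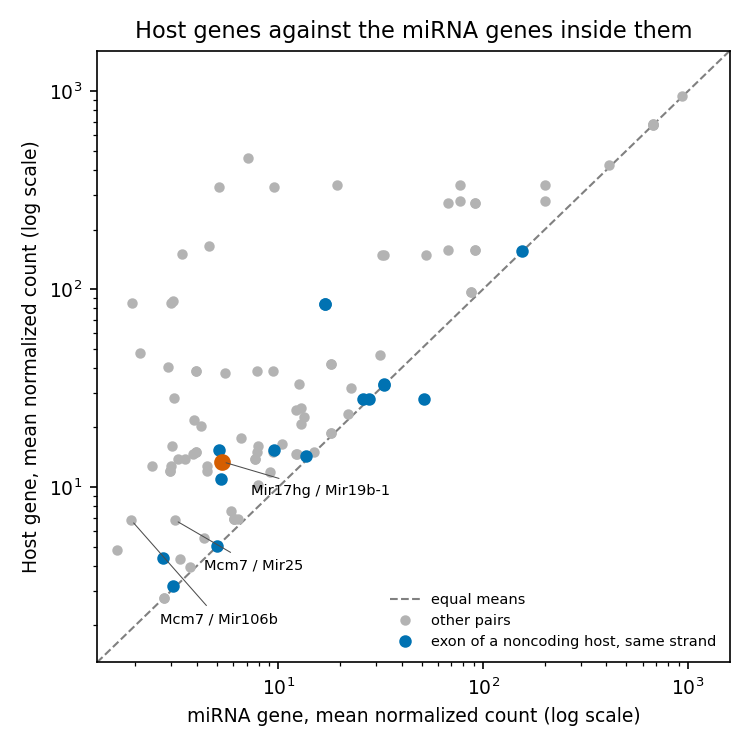
Mean normalized count of the host gene (y axis) against that of the miRNA gene inside it (x axis), both on log scales, for 107 pairs. The dashed line marks equal means, and blue points are pairs with the hairpin in an exon of a noncoding host on the same strand. Mir17hg with Mir19b-1 (orange) lies above the line at 13.4 against 5.30, while 8 of the 16 pairs of this kind lie on the line or within 10% above it.

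Hosts with several miRNA genes show how far such means add up. Of 16 hosts with at least 2 differing miRNA values inside them, 13 had a mean at or above the sum of those values, for example Mir133a-1hg, at 158.4 against a sum of 158.3. The 3 below it were 6720427I07Rik, Spaca6 and Fancc, with ratios of 0.267, 0.375 and 0.710. The host's mean is therefore not a ceiling for the sum of its members in every case, and the 8.14 left on Mir17hg gives no limit for the 5 hairpins with no row. Strand was no part of the values either: in all 14 pairs of miRNA genes that overlap on opposite strands, both genes held the same mean. GENCODE M21 lists no other gene that lies inside Mir17hg.

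The mature miR-19b-3p of Mir19b-1 also comes from a further gene, Mir19b-2, in the related Mir106a-363 cluster on the X chromosome. The hairpins follow (RefSeq, GRCm38.p6, 5′ to 3′), with their longest common stretch in capitals.
Mir19b-1: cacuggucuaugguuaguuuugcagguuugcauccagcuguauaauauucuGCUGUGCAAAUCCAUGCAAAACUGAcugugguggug
Mir19b-2: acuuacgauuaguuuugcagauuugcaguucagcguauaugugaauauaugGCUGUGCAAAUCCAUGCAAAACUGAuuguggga

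Mir19b-1 is chr14:115044305-115044391 on the plus strand and Mir19b-2 is chrX:52741983-52742066 on the minus strand. The stretch in common is 25 bases, positions 52 to 76 of either hairpin, and holds all 23 bases of miR-19b-3p. A read of this mature strand therefore matches both genes in full, and only reads from other parts of the hairpin, such as the 5′ arm, tell them apart:
miR-19b-1-5p: aguuuugcagguuugcauccagc
miR-19b-2-5p: aguuuugcagauuugcaguucagc

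Mir19b-1 had a mean of 5.30 and Mir19b-2 had no row. How the authors placed reads with more than 1 match is not given in the sources used here, so the 5.30 cannot be split between the chromosome 14 gene and the X chromosome gene. The methods also describe a mapping to mature miRNAs that permitted some mismatches, and miR-19a-3p is 95.7% identical to miR-19b-3p. The values used here also cover 8409 protein-coding genes, which that mapping alone cannot give. Whether reads of Mir19a are also part of the 5.30 was not tested. Of 16 mature sequences that the RefSeq entries used here place on more than 1 gene and that have any row, 13 had a row for every gene copy. Their copies differed by 1.06-fold (miR-181a-5p) to 1.69-fold (miR-125b-5p). Further genes with a row for each of a pair of copies are outside this tally, among them Mir1a-1 and Mir1a-2 (90.5 and 91.2), Mir133a-1 and Mir133a-2 (67.1 and 67.4), and Mirlet7a-1 and Mirlet7a-2 (51.1 and 52.5). The other 3 had 1 copy with a row: miR-19b-3p, miR-29b-3p (Mir29b-1 at 4.80, without Mir29b-2) and miR-450a-5p (Mir450-2 at 2.04, without Mir450-1). On the X chromosome 6 miRNA genes had rows, and why Mir19b-2 had none was not tested. Several of these sequences share a hairpin, so the 16 are not separate observations.

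**Figure D4:**
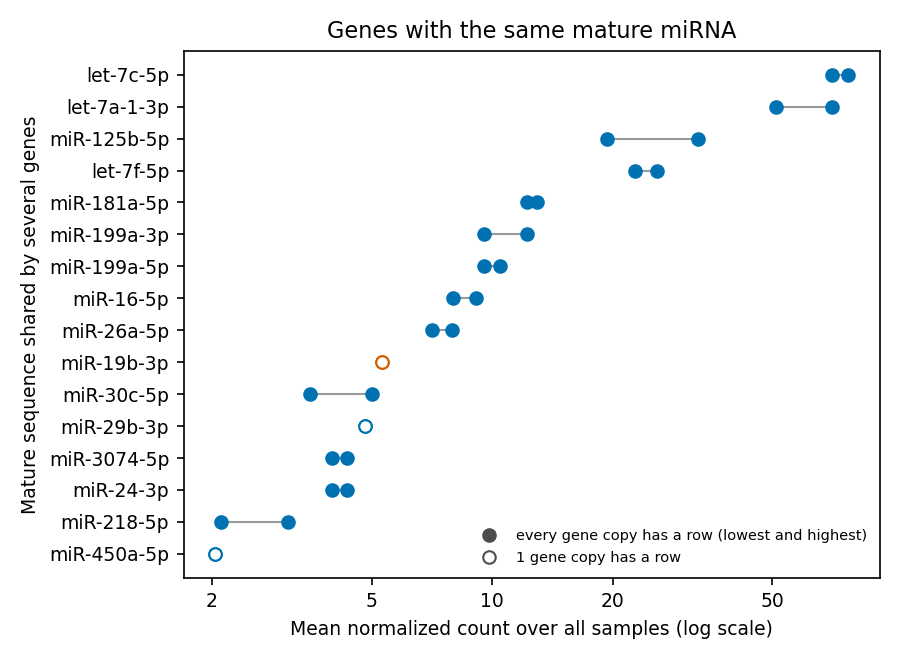
Mean normalized count over all samples (x axis, log scale) for the 16 mature sequences of the tally that stem from more than 1 gene (y axis). Filled points joined by a line are the lowest and highest copy, open points mark sequences with a row for 1 copy only. miR-19b-3p (orange, 5.30) is 1 of 3 open points, while filled pairs lie 1.06-fold to 1.69-fold apart.

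Mammals carry a pair of further clusters from the same ancestor, Mir106a-363 on the X chromosome and Mir106b-25 on chromosome 5, and loss of the latter is known to worsen loss of the miR-17-92 cluster. None of the 6 genes of Mir106a-363 (Mir106a, Mir18b, Mir20b, Mir19b-2, Mir92-2 and Mir363) had a row. Of the 3 genes of Mir106b-25, Mir106b had a mean of 1.90 (place 133 of 134 miRNA genes), Mir25 had a mean of 3.11 (place 111) and Mir93 had no row. Over the 3 clusters, 3 of 15 genes had a row and their means summed to 10.3. This is 0.189% of the summed miRNA means, a sum in which identical values are counted each time. Mir19b-1 was the highest of the 3, 1.71 times Mir25 and 2.79 times Mir106b. Their gene lengths are alike (82 to 87 bases), and the order was the same per kilobase, at 61.0, 37.0 and 23.2. The order carries no replicate error and the differences were not tested.

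The dominant strands of the 2 listed genes of Mir106b-25 are printed for comparison with the cluster's seeds above, again with the seed in capitals.
miR-106b-5p: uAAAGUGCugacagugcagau
miR-25-3p: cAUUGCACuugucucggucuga

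miR-106b-5p carries the miR-17 seed and miR-25-3p the miR-92 seed, and each sequence lies in 1 hairpin only among the RefSeq entries used here. By seed, the miR-17 family had a row for 1 of 7 genes (Mir106b), the miR-18 family for 0 of 2, the miR-19 family for 1 of 3 (Mir19b-1) and the miR-92 family for 1 of 7 (Mir25). The 3 rows thus came from different families. The families cannot be ordered by level, since the genes with no row have no known level.

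Mcm7, a helicase subunit needed to start DNA replication, is the host of Mir106b-25 and had a mean of 6.83. Its 2 listed miRNA genes summed to 5.01, or 73.4% of the host, against 39.5% for Mir19b-1 in Mir17hg. The part of the mean not matched by listed hairpins was 1.82 for Mcm7, or 0.237 per kilobase, and 8.14 for Mir17hg, or 2.16 per kilobase. Per kilobase of gene span the remainder on Mir17hg was 9.13 times that on Mcm7. The remainder on Mir17hg includes 5 hairpins with no row, and that on Mcm7 includes Mir93, which has none either. These remainders are therefore not like for like, and their ratio is not read as a result. The nearest gene named beside the cluster, Gpc5, a heparan sulphate proteoglycan of the cell surface, starts 45487 bases after the end of Mir17hg on the same strand. Its mean of 94.8 lay above that of Mir17hg, but Gpc5 is 1433 kb long and held 0.0662 per kilobase of gene, below the 3.49 of Mir17hg. Per kilobase of exons the values were 21.3 for Gpc5 and 3.80 for Mir17hg. Counts on a gene appear to take in its introns, as Mir208b (937.6) lies outside the exons of Myh7 (943.4). Division by exon length is therefore not a density for a long gene such as Gpc5, and this order is not read as a result.

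Genes that act before and after the cluster were listed with their levels, which in a small RNA library come from fragments of their transcripts or introns and do not measure mRNA. The share of all protein-coding genes with a row was not computed, so counts of listed genes with a row are not read as a result. For the transcription factors known to drive the cluster, 3 of 5 had a row: Myc, its best known activator, at 5.68, E2f2 at 36.4 and E2f3 at 10.04, while Mycn and E2f1 had none. E2F factors are known both to activate the cluster and to be its targets. Per kilobase of gene, Myc held 1.14, E2f2 1.54 and E2f3 0.126, all below Mir17hg at 3.49.

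For processing, 3 of 8 listed genes had a row. Drosha, the nuclease that frees the hairpins, had a mean of 11.7. Hnrnpa1, an RNA-binding protein known to aid the processing of the miR-18a hairpin of this cluster, had a mean of 3.89. Lin28b, a repressor of let-7 processing, had a mean of 1.89. Dgcr8, Xpo5, Dicer1, Khsrp and Lin28a had no row.

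For known targets, 5 of 10 genes had a row, with means from 5.43 to 81.0 and a median of 11.6. Tgfbr2, a receptor of TGF-beta, had the lowest at 5.43. By mean count this was close to Mir19b-1, but Tgfbr2 is 91.1 kb long. Per kilobase of gene it held 0.0596, against 61.0 for Mir19b-1. Bcl2l11, which encodes the cell death protein BIM, had the highest at 81.0. Between them lay Cdkn1a (10.3), which encodes the cell cycle inhibitor p21, Sirt1 (11.6), a protein deacetylase, and Rbl2 (14.7), a relative of the retinoblastoma protein. Thbs1, Ccn2, Isl1, Tbx1 and Itga5 had no row. With 1 pooled value per gene, no relation between the level of Mir19b-1 and that of any target was examined.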

How the data were processed

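Small RNA libraries from 6 hearts were, per the study's methods and the submitters' processing notes, trimmed with cutadapt, mapped with Bowtie (build mm9) and compared with DESeq. A further mapping to mature miRNAs is also described. It cannot alone have given the values of protein-coding genes, and which mapping gave the miRNA values is not stated. Versions, annotation and the counting of overlapping genes or reads with several matches are not given in the sources used here. The deposited table holds 1 signal value per gene used here, the authors' mean of normalized counts over all samples. Its other columns are the authors' own genotype comparison (log2 fold changes, their errors, statistics and p-values) and were not used. 0 columns hold single samples, so no test, replicate error, interval or depth could be computed.

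Of 10065 Ensembl identifiers, 10005 matched GENCODE M21 (GRCm38), which gave symbols, positions and lengths. No value was read by coordinate. Sequences came from RefSeq (GRCm38.p6) by symbol. Hosts are genes with a row that span a miRNA gene on either strand. Scripts ran in Python 3.11.15 with matplotlib 3.10.9, and their functions were checked on made-up cases with known answers. Ranks count 1 plus the number of higher values. Named genes were the cluster, its paralog clusters and hosts, Gpc5, the 5 nearest miRNA and lincRNA genes, the 3 highest and lowest pair ratios, and fixed lists of regulators, processing genes, targets and cell type markers, of which 1 target is not reported here. Further examples were picked with their values in view. The members and lists were chosen with earlier results of these data known. Alternatives were lengths, filters on low means, and which pairs or copies were counted.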

Additional observations from a re-analysis of the deposited data

How the results depend on the processing

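Of 12 alternatives, 5 left the value within 1.5-fold: the place of Mir19b-1 was 69 with identical values counted once and 78 with means of at least 1, and the median host ratio was 1.65 for exonic, 2.03 for same-strand and 1.39 where the miRNA mean reached 10. The lowest miRNA mean was 1.63, so the filter at 1 removed no miRNA gene and the place of 78 could not change. The other 7 alternatives moved the value. Per kilobase of exons Mir19b-1 was 61.0 and Mir17hg 3.80, which turned their ratio from 2.53 to 0.0623, or 0.0573 per kilobase of gene span, and with the miRNA taken off the host it was 1.53. The median ratio was 1.07 for hairpins in exons of noncoding hosts on the same strand, a set chosen after seeing the data. The sum over the 3 related clusters was 10.3, and 5.01 when limited to genes whose mature sequences match 1 hairpin, which leaves out Mir19b-1. A minimum mean of 10 left no cluster miRNA.

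No paired analysis was possible because the values are pooled over all samples. For the same reason a replicate block, DESeq2, leaving out each replicate, and the genotype comparison with and without a filter were not run. Means this low rest on few reads per library, and a gene with no row was not analysed here, which is not the same as a level of 0.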
